A study of Mus musculus with 10 samples.

Results

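The 5 libraries described here are the intact corneal endothelial peelings of a study that holds 10 libraries in all. They were chosen by their labels, as every sample of the wild-type group, and no measured value entered the choice. The mice were C57BL/6, Slc4a11+/+, and 12 weeks old. Each library was made from a pool of 6 peelings taken from the 6 eyes of 3 animals, so every value below belongs to a pool and not to an animal. The pools are named WT 1 to WT 5, and runs of 5 values are given in that order. The labels give neither the sex of the animals nor the hour or day of collection, and they do not say whether the pools were collected together. The question addressed is which messages an unmanipulated peeling holds, at which level, from which kinds of cell, and how far one pool differs from the next.

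The corneal endothelium is a single layer of cells at the back of the cornea that rests on Descemet's membrane, a basement membrane rich in collagen VIII. It keeps the stroma clear by moving ions, bicarbonate and lactate out of it, with water following. In front of Descemet's membrane lie the keratocytes, the stromal cells that make collagen I and the leucine-rich proteoglycans that space its fibrils. A peeling lifts the membrane with its cells and can carry other tissue of the anterior eye along. In bulk RNA of this kind, fewer cells of a type and less RNA per cell cannot be told apart.

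Total counts were 37986005, 43453555, 43250621, 50285408 and 51008996. The table lists 55450 genes, of which 29629 were counted at least once and 14620 reached a mean of 1 CPM. CPM, a count relative to the library total with a composition factor, is used to compare 1 gene between pools. Levels of different genes are compared in TPM, a length-scaled share of messages, which divides each count by the exon length of the gene. At 5 pools a gene with 0 counts could have stood at up to 0.0133 CPM (3 counts over all 5 libraries, counting error only). Of 21938 nuclear protein-coding genes, 12618 reached 1 CPM, and ranks below are among the 21938. The counts of list members at 1 CPM given below stand beside that share. A list near it held expressed members no more often than genes at large. The top 10 genes took between 13.2% and 16.2% of the counts, and the top 100 between 32.9% and 35.6%. Spearman's rank correlation between pools over genes lay between 0.990 and 0.996, over genes that are not independent of each other. The chi-square per degree of freedom between pools was at least 16.4, more than counting error gives when 1 library is sequenced again. This value cannot tell separate pools from repeat libraries of the same RNA. For 36 of the named and listed genes an expressed gene on the other strand shares exon sequence, at 0.1 of their level or more. Whether reads were counted by strand is not known from the labels. Col4a1 and Col4a2, Car14, Slc4a2, Nr1d1, Dusp1, Junb, Csf1r, Egfl7, Tagln, Rarb, Erbb2, Pfkp, Hspd1, Hspe1 and Ndufa4l2 are among them, and their values are uncertain for that reason.

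All of the 5 genes that mark the sample were abundant in every pool, and they did not all mark endothelium. Slc4a11, a transporter of the layer's membrane, is a gene of chromosome 2 at positions 130684113 to 130697519 of GRCm38, minus strand. It stood at 3921, 4294, 3489, 3484 and 3579 CPM, with a mean of 3753 ± 351 CPM (SD, n = 5). WT 2 was the highest and WT 3, WT 4 and WT 5 lay close together, at a coefficient of variation (CV, the SD over the mean) of 9.35%. Col8a2, a chain of the collagen VIII of Descemet's membrane on chromosome 4, stood at 7524, 7074, 6679, 7300 and 7940 CPM. Its pools were nearly level, with a CV of 6.48%. Atp1b1, the beta subunit of the sodium pump on chromosome 1, stood at 1639, 1894, 1771, 1613 and 1730 CPM. WT 2 was again the highest and WT 4 the lowest, and the CV was 6.51%. A2m, the protease inhibitor alpha-2-macroglobulin on chromosome 6, stood at 33862, 26680, 31459, 38274 and 31615 CPM, with WT 4 the highest and WT 2 the lowest. Kera, the keratocyte proteoglycan keratocan on chromosome 10, stood at 9646, 5851, 7084, 9850 and 7643 CPM. WT 1 and WT 4 were high for Kera and WT 2 was low, at a CV of 21.3%.

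Among nuclear protein-coding genes, the 2 most abundant messages of the peelings by TPM were a growth factor binding protein and a stromal proteoglycan. Igfbp2, which binds insulin-like growth factors, stood at 17290 ± 1639 TPM (SD, n = 5) and ranked 1 in every pool. Dcn, the collagen-binding proteoglycan decorin, stood at 14178 ± 1626 TPM and ranked 2 or 3. A2m followed at 13758 ± 1569 TPM and the water channel Aqp1 at 12920 ± 1165 TPM. The ranges of Dcn, A2m and Aqp1 overlapped over the pools and their order was not fixed: A2m ranked from 2 to 4 and so did Aqp1. Kera (10464 ± 1983 TPM) and the carbonic anhydrase Car3 (10283 ± 1352 TPM) were next and did not differ beyond their spread. By CPM, where long messages collect more reads, A2m was first with a mean of 32378 and Dcn second with 27753.

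The other genes of the top 20 were of mixed origin. Angptl7, an angiopoietin-like protein of the stroma and the drainage tissue, stood at 9774 TPM and the lipid carrier Apoe at 9393 TPM. Bsg, the chaperone of lactate transporters, stood at 7684 TPM. Lum, the proteoglycan lumican, was at 7614 TPM and Aldh3a1, a corneal crystallin enzyme, at 6859 TPM. Sparc, a collagen-binding matrix protein, reached 6101 TPM. Npy, the peptide neuropeptide Y, ranked 13 at 5942 ± 662 TPM, with 1130, 1264, 1105, 962 and 1160 CPM. No pool lacked it and its CV was 9.69%. Apod, another lipid carrier, followed at 5904 TPM and Col1a1 at 5715 TPM. Mgarp, a mitochondrial protein, was at 5441 ± 173 TPM and was the steadiest of the 20, with a CV of 3.49% in CPM. The translation factor Eef1a1 (5440 TPM), Col8a2 (4861 TPM, rank 18), the actin-binding peptide Tmsb4x (4648 TPM) and Col1a2 (3833 TPM) completed the 20. Reads of Eef1a1 may be shared with its processed pseudogenes. Slc4a11 ranked 26 at 2243 ± 207 TPM (25 to 30 over the pools) and Atp1b1 ranked 35 at 1679 ± 146 TPM (30 to 43). Of all genes, 43 were in the top 50 by TPM of every pool.

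**Figure D1:**
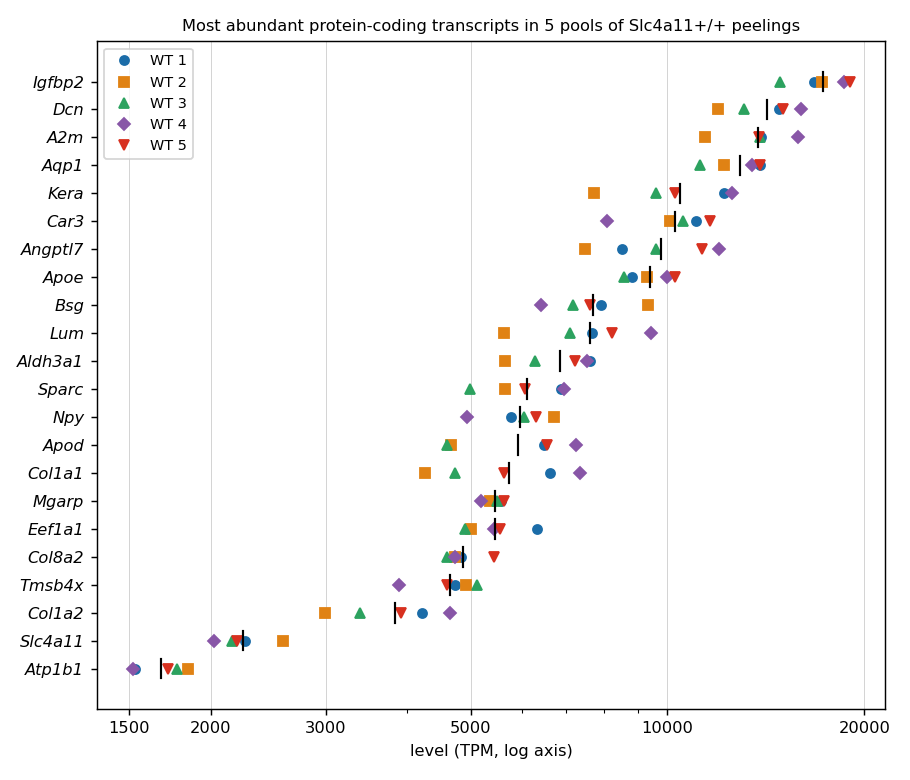
Level in TPM (log axis) of the 20 most abundant nuclear protein-coding messages and of Slc4a11 and Atp1b1, with 1 symbol per WT pool and a vertical bar at the mean of 5. Igfbp2 has the highest mean, at 17290 TPM, and the stromal genes Kera, Lum and Col1a1 spread further over the pools than Mgarp or Col8a2.

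The endothelial marker list was nearly complete in the peelings. Of 20 members, 19 reached 1 CPM and 15 reached 100 CPM. The summed level was 38686, 35250, 36155, 39932 and 39652 TPM, a spread of 1.13-fold from lowest to highest. A2m and Aqp1 made up most of it. A2m ordered the pools as the keratocyte gene Kera did, from WT 4 the highest to WT 2 the lowest. Which cells made A2m was not tested. The other 18 members summed to between 10615 and 12007 TPM, with WT 5 the highest and WT 4 the lowest. Slc4a4, the sodium bicarbonate cotransporter, stood at 936, 965, 965, 936 and 997 CPM, and its CV of 2.63% was among the smallest of the list. Frem3, a protein of the basement membrane zone, stood at 791, 837, 820, 817 and 824 CPM with a CV of 2.06%. Ncam1, a neural adhesion molecule also found on corneal endothelium, stood at 243 CPM, the cadherin Cdh2 at 303 CPM and Vwde at 125 CPM. Low members were Car2, the cytosolic carbonic anhydrase, at 1.42 CPM, and Zic1, a zinc finger transcription factor, at 0.0693 CPM. The member of the largest CV was Grip1, an adaptor of membrane receptors, at 25.3% around a mean of 7.39 CPM.

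The keratocyte list was complete as well, and its summed level was higher than that of the endothelial list in all pools. All 18 members reached 1 CPM and 17 reached 100 CPM. The summed level was 70366, 52961, 61497, 78776 and 70316 TPM. WT 4 was the highest and WT 2 the lowest, 1.49-fold apart. The ratio of the keratocyte sum to the endothelial sum was 1.82, 1.502, 1.70, 1.97 and 1.77. Without A2m and Aqp1 in the endothelial sum it was 6.43, 4.55, 5.54, 7.42 and 5.86, so its size rests on those 2 genes, while WT 4 was the highest and WT 2 the lowest both ways. This ratio is one of messages in these lists and not of cells. By pool, 11 of 18 were highest in WT 4 and 14 of 18 were lowest in WT 2, beside 21.2% and 21.3% of all 11404 genes at 5 CPM or more. Lum, for example, stood at 6517, 4577, 5630, 7954 and 6580 CPM, and Col1a1 at 15029, 9306, 10039, 16627 and 12054 CPM. The steadiest members were Ogn, the proteoglycan osteoglycin (CV 4.34%), and Chst5, a sulfotransferase that acts on keratan sulfate chains (CV 7.35%). The median CV was 19.2% over the 18 keratocyte genes and 8.25% over the 18 endothelial genes at 5 CPM or more, beside 8.13% over all 11404 genes at that level. Ptgds, a prostaglandin synthase, was the least abundant member at 18.0 CPM. The labelled cell type was therefore found by its markers, Slc4a11, Col8a2 and Atp1b1 among them, and the libraries hold messages of the stroma beside it.

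The corneal epithelium, the stratified layer at the front of the cornea, left a trace that differed widely between pools. Of 18 members 11 reached 1 CPM, and the sum was carried by Clu (1091 CPM) and Gsta4 (66.0 CPM), which other cells of the eye also make. Without those 2 genes the sum was 173, 286, 226, 89.1 and 48.6 TPM. Krt12, the keratin that defines this epithelium, stood at 47.1, 66.9, 59.1, 17.7 and 4.64 CPM. WT 1 to WT 3 were high and WT 4 and WT 5 low, a spread of 14.4-fold. Krt5, a keratin of basal cells, stood at 18.3, 42.2, 32.4, 7.74 and 1.51 CPM and followed the same split. Krt15, a keratin of the limbal and basal epithelium, stood at 2.76, 16.7, 2.72, 3.70 and 0.511 CPM, with WT 2 apart from the rest. The keratins of the list summed to 88.8, 157, 116, 39.9 and 12.8 CPM, 12.3-fold from lowest to highest. Of the 9 members at 5 CPM or more, 8 were lowest in WT 5, where 7.6% of all genes at that level were lowest, and Clu was lowest in WT 3. Dsp, the desmosomal protein desmoplakin, was nearly level, at 36.2, 35.5, 37.2, 34.5 and 34.4 CPM. Cdh1 (0.415 CPM), Epcam (0.560 CPM), Pax6 (0.617 CPM), the master regulator of eye development, and Krt14 (0.928 CPM) were under 1 CPM, and no member was at 0.

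Genes outside the list had the same split, and those of the largest CV were named by rule. Psca, a surface antigen of epithelia, stood at 36.8, 33.0, 41.5, 14.2 and 11.1 CPM. Asprv1, a protease of keratinising epithelia, stood at 58.6, 53.1, 62.3, 22.2 and 17.2 CPM. Gsto1, a glutathione transferase, was the most abundant of these at 331, 234, 398, 161 and 118 CPM. Plet1 (CV 53.7%), Krt6b (57.8%) and Mal (46.9%) were also higher in each of WT 1, WT 2 and WT 3 than in WT 4 and WT 5. In the conjunctival list 4 of 10 members reached 1 CPM. Muc4, a membrane mucin, stood at 16.1, 21.2, 38.1, 8.28 and 6.54 CPM and Krt13, a keratin of wet mucosae, at 9.43, 17.3, 7.24, 3.64 and 2.63 CPM. The goblet cell genes Muc5ac, Agr2, Tff1 and Tff3 had 0 counts. Aqp5, an epithelial water channel, stood at 6.47, 21.1, 8.24, 2.85 and 1.59 CPM. Slc5a1, a sodium glucose transporter, had a CV of 52.3% around 6.87 CPM, with WT 3 the highest.

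The trabecular meshwork is the drainage tissue at the edge of the corneal endothelium, and 6 of 10 members of its list reached 1 CPM. Chil1, a secreted chitinase-like protein, stood at 18.6, 15.2, 12.3, 107 and 26.6 CPM. WT 4 stood apart, 8.72-fold above WT 3, and the CV of 112% was the largest of all protein-coding genes at 20 CPM or more. Myoc, the secreted protein myocilin, stood at 15.6, 18.2, 14.5, 27.3 and 28.1 CPM and was higher in WT 4 and WT 5. Other genes had the same split. Tnc, the matrix protein tenascin C, stood at 15.8, 17.8, 13.4, 33.0 and 41.3 CPM. Mmp3, a matrix protease, stood at 18.8, 18.7, 16.8, 32.8 and 41.9 CPM. Coch, Cd109 and Serpine2 had 34.8%, 38.5% and 62.2% as their CVs and were likewise higher in WT 4 and WT 5; Coch and Cd109 are on no list and were picked out after their values were seen. Angptl7, Mgp (457 CPM) and Pdpn (291 CPM), which stroma also makes, accounted for most of the sum of the list. Without these 3 it was 44.6, 46.0, 37.8, 154 and 74.2 TPM. Rspo4 was at 0.

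Macrophage messages were present in every pool. Of 15 members 14 reached 1 CPM, and the sum was 705, 565, 458, 639 and 529 TPM. Lyz2, a lysozyme of myeloid cells, stood at 149, 115, 91.0, 126 and 93.8 CPM. The complement genes C1qa, C1qb and C1qc together stood at 97.9, 70.8, 51.3, 90.7 and 71.9 CPM. WT 1 was the highest for 8 of the 11 members at 5 CPM or more and WT 3 the lowest for 10, beside 28.6% and 29.4% of all genes at that level. Mertk, a receptor for dying cells that other ocular cells also make, was the exception, with its lowest value in WT 1 (23.5 CPM). Cd163, a marker of some resident macrophages, was at 0.339 CPM. The antigen-presenting genes Cd74 (85.2 CPM), H2-Aa (37.6 CPM), H2-Eb1 (27.7 CPM) and H2-Ab1 (27.0 CPM) were all lowest in WT 2, beside 21.3% of all genes. The dendritic cell genes Itgax, Flt3, Ccr7 and Clec9a were under 0.4 CPM, with Xcr1 at 0.

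Other blood and immune cells left little. S100a9 was the only neutrophil gene of 9 at 1 CPM, with a mean of 1.10 CPM, and Camp, Ngp, Elane, Mpo and Retnlg were at 0. None of 14 lymphocyte genes, 7 mast cell genes and 6 adipocyte genes reached 1 CPM. Red cells were seen by their globins: Hba-a1, Hba-a2, Hbb-bs and Hbb-bt summed to 84.9, 14.1, 15.1, 45.2 and 49.6 CPM. WT 1 was the highest and WT 2 and WT 3 were low, 6.00-fold apart. Each of these pairs is of near-identical genes, so only their sum is given.

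Messages of vessels, nerves and neighbouring eye tissues were low. In the vascular list Kdr, a receptor of vascular endothelial growth factor, stood at 120 CPM and Egfl7 at 9.36 CPM, while the defining genes Pecam1, Cdh5, Vwf, Tie1 and Tek were all under 1 CPM. The pericyte list was carried by Pdgfrb at 214 CPM, a receptor that stromal cells also make, with Rgs5 at 0.0662 CPM and Higd1b at 0. In the lymphatic list Pdpn alone was above 10 CPM, and Lyve1 and Prox1 were at 0.0206 and 0.110 CPM. Nerve and Schwann cell genes were present: Pmp22 stood at 185 CPM, Mbp at 42.9 CPM and Prx at 10.8 CPM. Of smooth muscle genes Acta2 (55.4 CPM), Tagln (45.6 CPM) and Myh11 (39.2 CPM) led, and Cnn1 was at 0.00987 CPM. Gnat1, a transducin subunit of the retina, stood at 4.24 CPM. Pigment cell genes apart from Mitf (8.86 CPM) and Pmel (2.65 CPM), and lens genes apart from Bfsp1 (5.18 CPM), Crygs (1.40 CPM) and Cryaa (1.13 CPM), were under 1 CPM. In the ciliary list Gja1, a gap junction protein of many tissues, held 453 CPM, and Wfdc1, Cdhr1 and Optc were between 2.80 and 4.87 CPM. Of skeletal muscle only Myh2 (1.51 CPM) and Myh1 (1.15 CPM) reached 1 CPM.

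**Figure D2:**
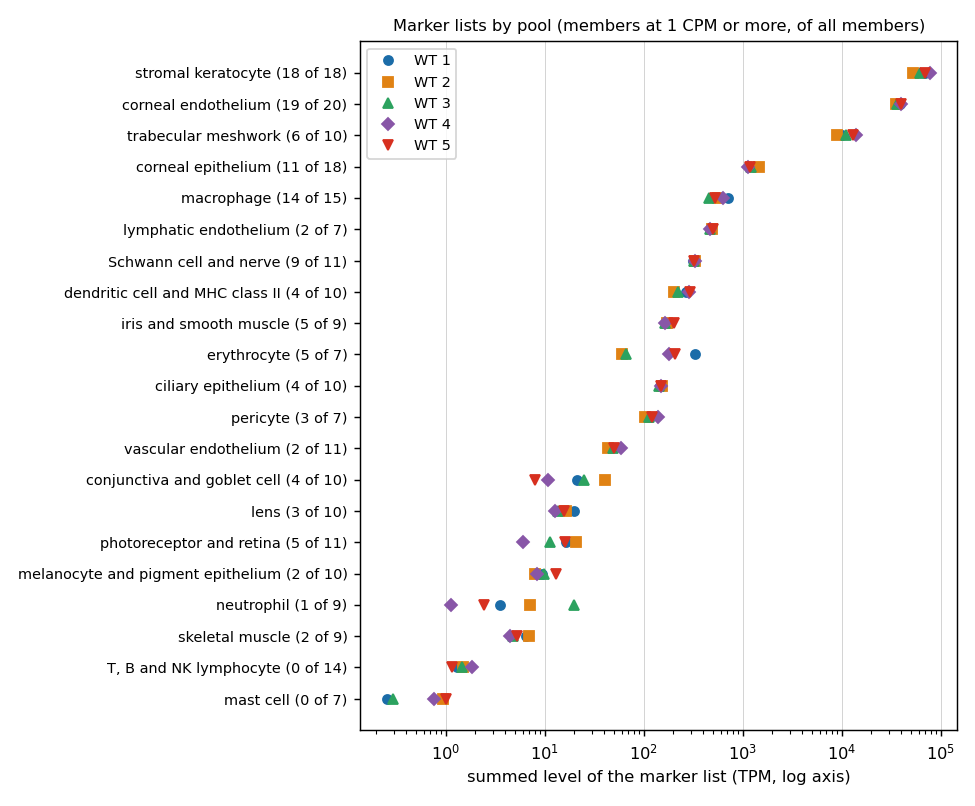
Summed level in TPM (log axis) of the marker lists that were above 0 in all pools, with 1 symbol per WT pool; the number of members at 1 CPM or more stands beside each name. The keratocyte and endothelial lists lie far above the other lists but the trabecular one, and the neutrophil, erythrocyte and conjunctival lists are spread most over the pools.

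The pools differed in sex makeup. Xist, the RNA of the inactive X chromosome, stood at 19.7, 116, 0.0223, 41.4 and 0.0196 CPM. WT 3 and WT 5 were at or near 0 counts and the other pools were well above. The Y-linked genes Ddx3y, Uty, Kdm5d and Eif2s3y summed to 43.6, 37.2, 154, 47.0 and 126 CPM, so that WT 3 and WT 5 were highest and no pool lacked Y-linked messages. WT 1, WT 2 and WT 4 thus held messages of both kinds. Ddx3y alone stood at 27.7, 22.3, 91.2, 32.6 and 74.0 CPM. The part of this makeup in any other difference between pools was not tested.

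The transport genes that define the work of the layer are given by family. Of 13 sodium pump genes 9 reached 1 CPM, and Atp1b1 (1679 TPM), Atp1b3 (394 TPM) and the regulator Fxyd6 (185 TPM) were among the most abundant. Atp1a4, the catalytic form of sperm, was at 0.167 CPM. Of 19 anion transporters 10 reached 1 CPM. Slc4a11 led at 2243 TPM, ahead of Slc4a4 (265 TPM) and the chloride exchanger Slc26a7 (220 TPM). Slc26a7 stood at 422, 296, 429, 453 and 405 CPM, with WT 2 low. Slc4a3, an anion exchanger, had the largest CV of the family, at 32.7% around 11.4 CPM, and Slc26a3 was at 0. Of the cation chloride cotransporters and sodium proton exchangers 12 of 17 reached 1 CPM. Slc12a4 led at 90.9 TPM, and the secretory cotransporter Slc12a2 stood at 11.2 TPM. Slc9a7 varied most, with a CV of 25.1%.

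Carbonic anhydrases, which turn carbon dioxide into bicarbonate, were dominated by 1 member. Car3 stood at 10993, 9626, 9813, 7972 and 10846 CPM, lowest in WT 4. Car9, a membrane form induced by low oxygen, stood at 299 TPM and Car14 at 62.8 TPM. Car2 was at 1.42 CPM, Car12 at 2.75 CPM and Car4 at 0, and 7 of 16 members reached 1 CPM. Of the lactate transport genes 10 of 14 reached 1 CPM. Bsg stood at 4981, 5636, 4211, 3994 and 4502 CPM, far above the transporters it escorts: Slc16a12 was at 88.7 TPM, Slc16a3 at 45.6 TPM and Slc16a1 at 30.6 TPM. Emb, a relative of Bsg, had a CV of 24.2%. Of aquaporins Aqp1 stood at 12624, 10677, 9542, 12191 and 11864 CPM, Aqp3 at 12.9 CPM, and Aqp6, Aqp7 and Aqp12 were at 0.

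Channels and nutrient carriers were lower. Of 32 channel genes 24 reached 1 CPM, led by the potassium channel Kcnk5 (181 TPM), Kcnk1 (67.0 TPM) and the volume-regulated anion channel subunit Lrrc8d (41.5 TPM). The stretch-gated channels Piezo1 and Piezo2 stood at 22.2 and 5.40 TPM. Kcnj2 had the largest CV, at 23.5%, and Cftr, the chloride channel mutated in cystic fibrosis, was at 0. Among 16 genes of glucose and amino acid entry 14 reached 1 CPM. Slc2a1, the glucose transporter of barrier tissues, led at 341 TPM, followed by Slc3a2 (308 TPM) and the taurine carrier Slc6a6 (130 TPM).

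Genes of Descemet's membrane and other basement membranes were abundant, and their sum varied little between pools. The median CV of the members was 8.99%, beside 8.13% over all genes at 5 CPM or more. Sparc, the most abundant member, had a CV of 16.5%. Of 31 members 28 reached 1 CPM, and the sum was between 15339 and 17093 TPM. Col8a2 and Col8a1 stood at 4861 and 679 TPM, and Sparc at 6101 TPM. Col12a1, a collagen of fibril surfaces, stood at 5314, 5256, 5634, 5741 and 5312 CPM. The type IV collagen genes were all present, with Col4a1 at 598 TPM, Col4a3 at 594, Col4a2 at 427, Col4a4 at 423, Col4a5 at 262 and Col4a6 at 167 TPM. Col4a3 was the most variable of these, at 1575, 2065, 2425, 1754 and 2045 CPM with WT 1 low. The nidogen Nid1 (198 TPM), the laminin chains Lamb2 (196 TPM) and Lamc1 (107 TPM) and the proteoglycan Hspg2 (74.3 TPM) followed. Lama3 and Lamb3, laminin chains of epithelial anchorage, were under 0.2 CPM. Fbln1, the matrix protein fibulin 1, varied most, with 15.7, 14.9, 12.1, 25.3 and 30.7 CPM.

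The matrix of the stroma varied more, in the same direction as the keratocyte list, with which it shares members. The sum of 13 fibrillar and stromal collagens was 16834, 11841, 13363, 18976 and 15338 TPM, and 11 were highest in WT 4, beside 21.2% of all genes at 5 CPM or more. Col6a1 (2218 TPM) and Col6a2 (1211 TPM), chains of microfibrils, followed Col1a1 and Col1a2. Col3a1, a collagen of scars and vessels, stood at 25.9 TPM, with its highest value in WT 5 and its lowest in WT 1. Small leucine-rich proteoglycans summed to between 28821 and 42771 TPM, and Bgn (1897 TPM) and Ogn (1262 TPM) followed Dcn, Kera and Lum. At 5 CPM or more, 7 of 8 were lowest in WT 2, beside 21.3% of all genes. Of matricellular proteins, Thbs4 (1340 TPM), Mgp (1149 TPM), a calcification inhibitor, and Thbs1 (1105 TPM) followed Sparc. Of proteases and inhibitors, Serpinf1, an inhibitor of vessel growth, stood at 3528 TPM after A2m, followed by Serping1 (1322 TPM) and Serpinh1 (1244 TPM), a chaperone of collagen. Pzp, a relative of A2m, was at 0.00445 CPM, under the level that 3 counts would give. Among secreted proteins, the sum of 24 genes was between 42274 and 53437 TPM, and 12 of the 20 at 5 CPM or more were highest in WT 4. Ttr and C3, abundant in liver, were under 1 CPM, and Igfbp6 varied most, with a CV of 34.4%.

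Junction genes were led by 1 claudin. Of 22 tight junction genes 13 reached 1 CPM. Cldn10, a claudin that forms ion pores, stood at 1066, 1142, 1054, 1031 and 1100 CPM, ranking 51 at 1245 TPM. Jam2 (195 TPM), Tjp1 (147 TPM), the scaffold of the junction, and Cgnl1 (66.5 TPM) were next. Ocln, Cldn1, Cldn2 and Cldn5 were each under 0.2 CPM. Cgn varied most, with a CV of 16.6%. Of adherens and gap junction genes 15 of 22 reached 1 CPM, led by Ctnnb1 (451 TPM), Ctnna1 (164 TPM) and Ctnnd1 (140 TPM). Gja1 stood at 469, 467, 439, 459 and 433 CPM. Gja4, a connexin of vessels, varied most, at 6.24 CPM with a CV of 23.8%. Of 18 integrins 15 reached 1 CPM, and Itgb1 (591 TPM), Itgb5 (340 TPM) and Itga3 (92.4 TPM) led. Itga7, a laminin receptor of muscle, stood at 18.2, 31.0, 19.7, 12.0 and 12.4 CPM.

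Of 35 transcription factors of neural crest and anterior segment, 20 reached 1 CPM, a share like that of all nuclear protein-coding genes (12618 of 21938). Lmx1b stood at 219 TPM, Twist1 at 217 and Tfap2b at 208 TPM, all factors that neural crest or the anterior segment needs. Lmx1b stood at 316, 374, 360, 366 and 373 CPM, with WT 1 below the other pools. Foxc1 was at 46.8 CPM and its relative Foxc2 at 0.414 CPM, and the lens factors Foxe3 and Pitx3 were at 0. Snai1 varied most, with a CV of 19.3%. Mouse genes listed for human corneal dystrophies were spread over a wide range, and 16 of 22 reached 1 CPM. A place on the list does not mean that the human gene of the same name is mutated, as for Chst5. Dcn, Kera, Col8a2, Slc4a11 and Chst5 led, and Chst5 ranked 46 at 1321 TPM. Tcf4 and Zeb1, genes linked to Fuchs dystrophy, stood at 54.1 and 26.9 TPM, and Krt12, mutated in a dystrophy of the epithelium, had the largest CV, at 68.7%. The Fuchs genes Loxhd1 and Agbl1 were at 0 and 0.0295 CPM. Grhl2 and Ovol2, linked to posterior polymorphous dystrophy, were at 0.0968 and 0.0172 CPM.

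Receptors for ocular signals were led by those for endothelins and neurotrophins. Of 38 members 31 reached 1 CPM. Ednrb, an endothelin receptor, stood at 1111 TPM and 1627, 1474, 1660, 1519 and 1647 CPM, ranking 65. Ntrk2, the receptor of brain-derived neurotrophic factor, stood at 358 TPM and 2614, 1845, 2061, 2869 and 2210 CPM, with WT 1 and WT 4 high and WT 2 low. Gfra1, a receptor of GDNF, stood at 273 TPM, the natriuretic peptide clearance receptor Npr3 at 197 TPM and Fgfr1 at 183 TPM. Adrb1 was at 0.0214 CPM. Ret, the signalling partner of Gfra1, varied most, with a CV of 20.3% around 10.6 CPM, and Mc1r was at 0.

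Of all genes at 5 CPM or more, 28.6% were highest in WT 1, the share beside which the counts of energy metabolism genes stand. All 21 glycolysis genes reached 1 CPM, and 16 were highest in WT 1. Aldoa (815 TPM), Pkm (738 TPM) and Tpi1 (694 TPM) led, and Tpi1 varied most, at 836, 681, 532, 524 and 630 CPM. The highest value was in WT 1 and the lowest in WT 4. Gapdh, whose pseudogenes can share its reads, stood at 211 CPM. All 25 genes of glutamine catabolism and the citric acid cycle reached 10 CPM, and 18 were highest in WT 1. Mdh1 (826 TPM), Sdhd (226 TPM) and Sdha (163 TPM) led. Of 29 antioxidant genes all reached 1 CPM and 16 of 28 were highest in WT 1. Mt2, a metallothionein, led at 528 TPM, followed by Prdx5 (428 TPM) and the secreted superoxide dismutase Sod3 (420 TPM), which varied most (CV 17.5%). Chaperones were steady: 15 of 15 reached 1 CPM, with Hsp90ab1 at 1012 TPM, Hspa5 at 745 TPM and Hspa8 at 670 TPM, and the stress-induced, near-identical Hspa1a and Hspa1b were at 1.96 and 2.32 CPM. Short genes as a class were higher in WT 1. Over 6769 genes, the median log2 deviation of those with exons shorter than 3781 bp was 0.09 in WT 1 and -0.10 in WT 3, and that of genes longer than 6584 bp was -0.07 in WT 1 and 0.06 in WT 3. The part of gene length in the higher values of WT 1 was not tested.

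Low-oxygen genes were present throughout: all 20 reached 1 CPM. Hif1a, the oxygen-regulated transcription factor, stood at 1437, 1359, 1612, 1185 and 1442 CPM and at 715 TPM, followed by Slc2a1 (341 TPM) and P4ha1 (329 TPM), an enzyme of collagen hydroxylation. WT 4 was the lowest for 9 of the 19 members at 5 CPM or more, beside 13.8% of all genes. Ndufa4l2 varied most, at 88.7, 62.5, 53.6, 47.7 and 53.3 CPM. Interferon genes were present at a modest level, with Ifitm3 (1020 TPM), Bst2 (145 TPM) and Ifit3 (104 TPM) leading and Mx1 at 0.351 CPM. Ifit3 stood at 65.7, 43.9, 64.3, 65.8 and 64.7 CPM, where WT 2 alone was low.

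Proliferation was little seen. Of 16 cell cycle genes 5 reached 1 CPM: Pcna (34.6 CPM), Mcm2 (8.89 CPM), Tyms (6.85 CPM), Mcm3 (6.37 CPM) and Mcm5 (3.93 CPM), all of DNA replication and repair. The mitotic genes Mki67 (0.799 CPM), Top2a (0.688 CPM), Cdk1 (0.286 CPM) and Ccnb1 (0.215 CPM) were under 1 CPM. Of inhibitors, Gas1 stood at 179 TPM, Cdkn1c at 73.2 TPM and Cdkn1b at 29.4 TPM, and Cdkn1a varied most, with a CV of 18.8%. Cdkn2a, a marker of senescence, was at 0.129 CPM.

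Immediate early genes, which respond quickly to handling, and clock genes, which follow the hour of the day, differed between pools. Egr1, an immediate early transcription factor, stood at 4.47, 11.4, 4.48, 10.96 and 7.70 CPM. Dusp1, a phosphatase of the same response, stood at 32.2, 59.9, 30.0, 44.4 and 55.7 CPM. WT 2, WT 4 and WT 5 were above WT 1 and WT 3 for these 2 genes, but the list as a whole summed to 301, 351, 348, 401 and 400 TPM, with WT 3 level with WT 2. Fos was at 1.89 CPM, and the most abundant members were Ier3 (136 TPM), Jund (54.7 TPM) and Dusp1 (40.2 TPM). All 19 clock genes reached 1 CPM, led by Nr1d1 (342 TPM), Dbp (168 TPM) and Tef (105 TPM). Arntl, which drives the clock, stood at 27.3, 40.2, 31.9, 24.8 and 24.8 CPM, and Per1, which brakes it, at 17.0, 21.6, 25.3, 28.3 and 30.3 CPM. WT 2 held the highest Arntl and Npas2 (CV 25.6%, the largest of the list), and 12 of 18 clock genes were lowest in WT 2, as were 21.3% of all genes at 5 CPM or more and most members of the keratocyte list. The part of collection time was not tested, since the labels give none.

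Most messages encoded by the mitochondrial genome differed between pools more than nuclear messages of like abundance. Mitochondrial genes took 0.992%, 3.23%, 2.92%, 1.51% and 1.71% of the counts. The 13 messages fell into 2 kinds. mt-Co1, a subunit of cytochrome oxidase, stood at 1225, 6744, 6015, 2581 and 3207 CPM, and mt-Cytb, of complex III, at 939, 4716, 4084, 1851 and 2169 CPM. WT 2 and WT 3 were high and WT 1 low. The neighbouring genes mt-Atp8, mt-Atp6, mt-Co3 and mt-Nd3 varied less, at CVs between 10.5% and 15.7%, and summed to 4458, 5943, 5783, 5206 and 4767 CPM. All of these but mt-Nd3 were likewise lowest in WT 1 and highest in WT 2 and WT 3. The other 9 summed to 5255, 24073, 21558, 10023 and 11761 CPM, 4.58-fold from lowest to highest. This split was seen in the values and was not set beforehand.

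**Figure D3:**
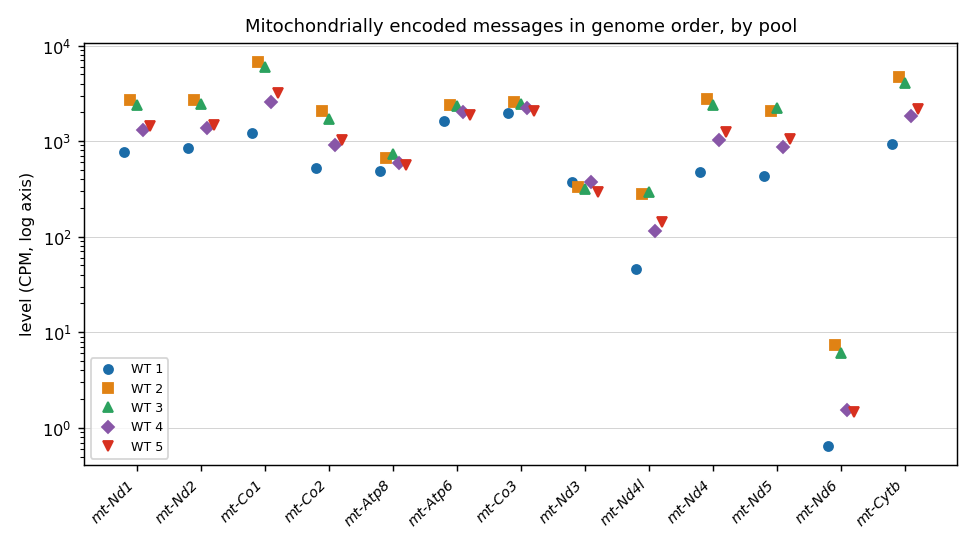
Level in CPM (log axis) of the 13 mitochondrially encoded messages in the order of the mitochondrial genome, with 1 symbol per WT pool. WT 1 lies lowest and WT 2 and WT 3 highest for all but mt-Nd3. The pools of the neighbours mt-Atp8, mt-Atp6, mt-Co3 and mt-Nd3 lie closer together than those of the other messages.

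These levels are uncertain, because the nuclear genome holds copies of mitochondrial sequence. A stretch of chromosome 1 from 24611535 to 24615565 on the minus strand (GRCm38) carries 6 annotated copies with 100% identity over their aligned length, where reads of gene and copy cannot be told apart. The windows below show 90 bases of a gene and its copy, for an identical pair and for a pair with differences; capitals mark the bases that differ.
mt-Co2: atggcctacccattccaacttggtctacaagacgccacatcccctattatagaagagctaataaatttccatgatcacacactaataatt
Gm28661: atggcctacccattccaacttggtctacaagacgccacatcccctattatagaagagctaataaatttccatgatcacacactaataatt
mt-Co1: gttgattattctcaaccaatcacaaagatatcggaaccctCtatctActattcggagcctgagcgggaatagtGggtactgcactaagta
Gm13340: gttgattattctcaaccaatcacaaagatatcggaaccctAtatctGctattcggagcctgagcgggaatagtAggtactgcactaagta
The sequences are those of the GENCODE vM21 transcripts. The level of mt-Co2 was 524, 2068, 1697, 908 and 1023 CPM and that of its identical copy Gm28661 was 514, 2066, 1708, 911 and 1018 CPM, nearly the same in each pool. mt-Co3 stood at 2249 CPM and its copy Gm28437 at 2255 CPM, and mt-Nd4l stood at 176 CPM and its copy Gm10222 at 174 CPM. Gm13340, on chromosome 2, differs from mt-Co1 at 37 of 1545 bases and stood at 239 CPM beside 3954 CPM for mt-Co1. Copies were looked for only among annotated pseudogenes at 20 CPM or more. Of the 4 less variable messages, mt-Atp6, mt-Co3 and mt-Nd3 had an identical copy among these. Of the other 9, mt-Nd4, mt-Nd4l and mt-Co2 had one, that of mt-Nd4 over 876 of its 1378 bases. The part of the copies in the split was not tested.

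Over all genes the pools were close. The common biological CV, an estimate by edgeR of the spread beyond counting error, was 12.1%. The median CV over the 11404 genes at 5 CPM or more was 8.13%, with 4.08% and 16.1% as the 10th and 90th percentiles, beside a median counting error of 2.82%. The median was 9.51% for genes of 5 to 20 CPM, 7.12% for 20 to 100 CPM, 8.12% for 100 to 1000 CPM and 12.4% for the 99 genes at 1000 CPM or more. The steadiest protein-coding genes at 20 CPM or more were Atp6v1c1, a proton pump subunit, with 38.5, 38.6, 38.2, 38.7 and 38.5 CPM (CV 0.466%), followed by Tbc1d20, Wdr5, Smarce1, Dld, Dnajb4, Tapt1, Etfdh, Fam174a and Nelfb, up to a CV of 1.01%. These values are below what counting alone gives on average at their depth, so their order was not read.

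**Figure D4:**
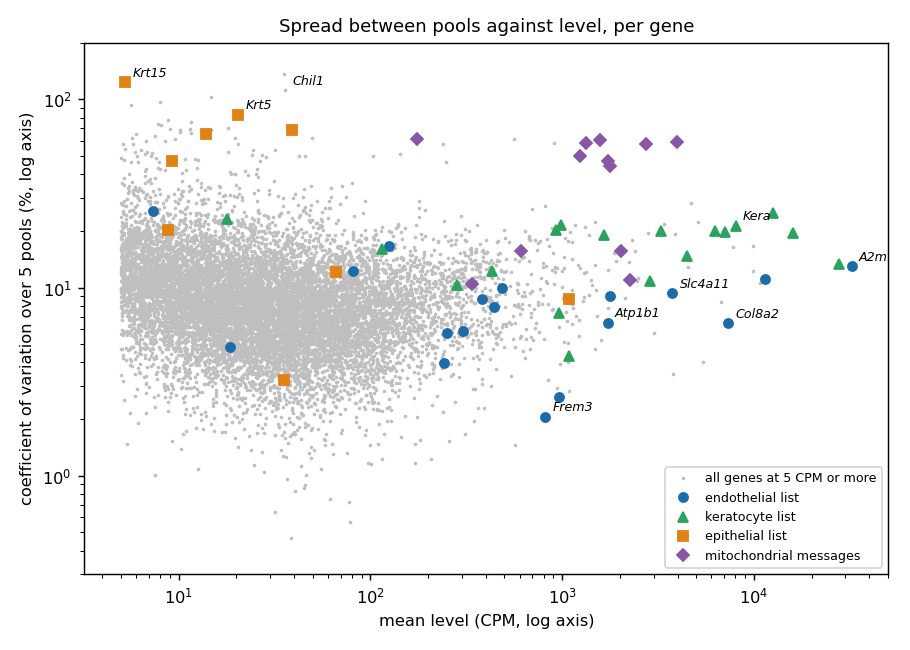
Coefficient of variation over the 5 pools (%, log axis) against mean level (CPM, log axis) for each gene at 5 CPM or more (grey), with 4 gene lists in colour. Epithelial keratins and most mitochondrial messages lie above the cloud, keratocyte genes near 20%, and most endothelial genes at or under 13%.

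The variable genes fell into few patterns. At 5 CPM or more, 56 genes had a CV over 50%. Of these, 27 (48.2%) were highest in WT 2 and 20 (35.7%) in WT 3, beside 16.7% and 22.8% of all genes at that level. The lowest pool was WT 1 for 25 and WT 5 for 18, beside 27.8% and 7.6% of all genes. The 56 include 6 mitochondrially encoded messages and the nuclear copies Gm28439, Gm10222, Gm13340 and Gm28661, all highest in WT 2 or WT 3. Reads of a gene and its identical copy cannot be told apart, so these are not separate signals. The 188 genes that follow hold them too. Of 188 genes at 20 CPM or more with a CV over 20%, 107 (56.9%) had WT 2 and WT 3 as their highest pools, beside 930 of 6996 genes (13.3%) at that level. WT 1 and WT 4 were the highest for 18.1% of the 188 and for 25.4% of the 6996. Principal component 1, with 44.0% of the variance, placed WT 2 and WT 3 (-19.5 and -22.7) apart from WT 1 and WT 4 (21.9 and 14.9), with WT 5 between (5.37). Clk1, a kinase of splicing factors, stood at 14.1, 52.5, 47.2, 20.8 and 23.9 CPM, and Wsb1 at 14.5, 47.4, 39.2, 19.8 and 21.6 CPM. Tmf1, a Golgi protein, was lowest in WT 1 at 9.53 CPM and highest in WT 3 at 32.3 CPM. Malat1, a nuclear RNA, stood at 56.9, 236, 199, 124 and 97.7 CPM and Neat1, the scaffold of paraspeckles, at 16.7, 75.9, 57.6, 31.2 and 47.4 CPM. Ogt (CV 35.8%), Ccnl2 (40.3%), Rsrp1 (34.5%), Mdm4 (36.8%), Nktr (33.5%), Tia1 (33.7%) and Leng8 (33.0%) had the same 2 pools on top. Malat1, Neat1 and these 7 genes were picked out after their values were seen. Pcsk2, a prohormone convertase that was chosen in the same way, had the reverse order, at 108, 54.6, 55.1, 85.0 and 70.5 CPM. A set of 6 noncoding loci, Gm42418 and Mir6236 among them, which are known to collect reads of ribosomal RNA, summed to 76262, 51245, 55973, 63773 and 45822 TPM, highest in WT 1. The labels give no RNA integrity value per pool beyond a minimum of 7, and the part of RNA quality in these patterns was not tested.

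**Figure D5:**
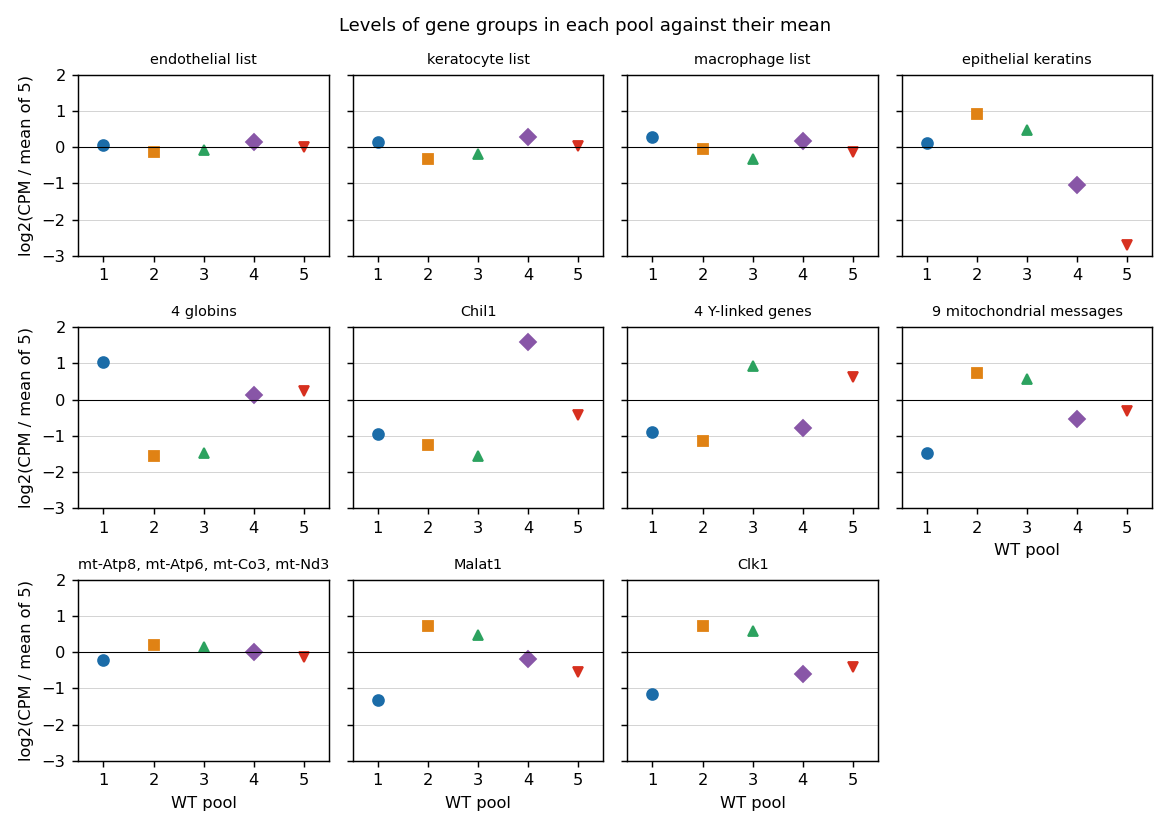
Level of each gene group in the 5 WT pools, as log2 of CPM over the mean of 5, on the same axis in each panel. Epithelial keratins, globins and Y-linked genes each order the pools in their own way, and the endothelial and keratocyte sums move far less than the 9 mitochondrial messages, Malat1 or Clk1.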

How the data were processed

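Total RNA with an integrity number above 7 was made into stranded poly-A libraries from 100 ng with 12 PCR cycles and sequenced in pairs, per the labels. The authors deposited raw counts per gene. The submitters' processing notes list the build GRCm38.p6 and, with no roles, cutadapt 2.4, Trim Galore 0.6.4, Subread 1.6.4, featureCounts and HISAT2 2.1.0. No label states the strand setting, the annotation release or how multiply mapped reads were handled. GENCODE vM21 matched all 55450 gene IDs. The 5 wild-type columns were scaled by TMM in edgeR 4.0.16 (R 4.3.3) to CPM. TPM was the count per kb of merged exon length, scaled to the same total in each pool. The CV was taken over pools, and the common biological CV over genes passing a minimum count of 10 and a total of 15. Because 1 group was described, no test was made. Text names the 20 highest nuclear protein-coding genes by TPM, the 15 most and 10 least variable at 20 CPM or more, the markers, and the 3 highest, the most variable and selected other members of 54 lists (877 entries, all found). Members and lists were chosen with earlier results of these data known. The spread calculation was tested on simulated data. Alternatives were DESeq2 1.42.0 size factors, total counts, the longest transcript as length, other level minimums and leaving out each pool. Some genes that this rule names are not reported here.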

Additional observations from a re-analysis of the deposited data

Results flagged for a closer look

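Of 275 results looked at, 9 had 1 pool far from the other 4, with a gap above 0.71 of the whole range. Chance alone sets apart about 1 in 20 such groups, a share that 9 of 275 does not exceed. Chil1 was at 107 CPM in WT 4, where the next pool was at 26.6 CPM. Krt15 was at 16.7 CPM in WT 2, where the next was at 3.70 CPM. Ifit3 was at 43.9 CPM in WT 2, below the next at 64.3 CPM. Car14 was at 44.4 CPM in WT 4, below the next at 54.0 CPM, and its exons overlap those of Aph1a on the other strand. Lmx1b was at 316 CPM in WT 1, below the next at 360 CPM. Pdpn was at 274 CPM in WT 3, where the next was at 294 CPM. The summed level of the lymphatic list, which Pdpn carries, was lowest in the same pool at 276 CPM, with the next at 296 CPM. The hypoxia targets summed to 3394 CPM in WT 4, below the next at 3843 CPM. Long noncoding and antisense genes took 1.33% of the counts in WT 5, below the next at 1.64%.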

How the results depend on the processing

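No paired analysis was possible because only 1 group was described and no comparison was tested. Under other scalings (DESeq2 size factors, upper quartile, total counts, and TMM over all libraries of the series) 8 mean CPM values moved by more than 1 SD, 864 mean CPM values and all 216 summed CPM values by less. Of the median CVs of lists, 28 moved by more than their spread with 1 pool left out and 119 did not. With total counts the median CV of stromal keratocyte genes was 15.2% and the median CV of corneal endothelium genes 9.55%. The common biological CV was 12.8% with total counts and between 11.1% and 13.2% without any 1 pool. With a minimum of 20 CPM, 24 genes had a CV over 50%, since fewer genes were looked at. With the longest transcript as length, 94 of 204 genes moved by more than 1 SD. Slc4a11 was then at 2830 TPM, Col8a2 at 4062 TPM (rank 20), A2m at 16914 TPM (rank 2), Kera at 8434 TPM (rank 7) and the epithelial sum at 1749 TPM. TPM over nuclear protein-coding genes only, an alternative added after seeing the data, gave 3007 for Slc4a11, 6496 for Col8a2, 2252 for Atp1b1, 18367 for A2m and 13935 for Kera. The endothelial, keratocyte and epithelial sums were then 50675, 89002 and 1700 TPM, raised by construction as other messages leave the total. Without any 1 pool, Kera ranked between 5 and 7, and the ratio of keratocyte to endothelial sums lay between 1.70 and 1.82, but without A2m and Aqp1 it was between 4.55 and 7.42 over the pools. The 5 pools limit the precision of every CV, and counting error limits genes under 5 CPM.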
